A study of Homo sapiens with 8 samples.

Results

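The genes ATG16L1, HDAC1, CDK9, AQP3, PPP1CA and CCNE1 have each been reported in the literature as targets of the microRNA miR-874-3p. The genes were chosen with earlier results of these data known. Their probes were taken by gene name in the array annotation, and all of them were described. This gave 8 probes for 6 genes out of 58201 gene probes and 43317 gene names on the array. ATG16L1 and AQP3 had 2 probes each and the other 4 genes had 1 each. They were measured in SAS cells, an established line from a human squamous cell carcinoma of the tongue, named SAS in the labels, whereas the study's results speak of SAS/GFP cells, a derivative that expresses GFP. All 4 groups received 25 nM of a transfected small RNA, and each group had 2 arrays. The RNA was a miR-874-3p mimic, a mimic of another microRNA (miR-210-3p or miR-629-3p) or a negative control RNA (NC). The study's methods name Dharmacon as the supplier of the mimics and Applied Biosystems as that of the negative control. Mimic and supplier therefore cannot be told apart in comparisons with NC. The labels place extraction 48 h after transfection and the study's methods place it at 24 h. The labels do not say whether the 2 arrays of a group came from separate cultures, so p-values measure only the spread between these arrays.

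A microRNA guides a silencing complex to messenger RNAs that pair with its seed, the bases near its 5′ end, most often in the 3′ untranslated region. Pairing usually lowers translation and shortens the life of the message, so the RNA of a target can fall when a mimic is added, while a target that is controlled at translation can keep its RNA. The 6 genes act in different processes. CCNE1 (cyclin E1) drives entry into S phase, CDK9 releases paused RNA polymerase II, HDAC1 removes acetyl groups from histones, ATG16L1 directs lipid attachment to LC3 in autophagy, PPP1CA is a catalytic subunit of protein phosphatase 1, and AQP3 is a channel for water and glycerol in epithelia.

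The mature sequences of the 3 microRNAs are shown because the mimics differ in their seeds, which decide the sites each can pair with. They are printed 5′ to 3′ from RefSeq (GRCh38.p14), with bases 2 to 8, the seed, in capitals. The mature sequences lie on the minus strand of chr5:137647582-137647603 for miR-874-3p, chr11:568112-568133 for miR-210-3p and chr15:70079387-70079408 for miR-629-3p.
miR-874-3p: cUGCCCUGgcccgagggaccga
miR-210-3p: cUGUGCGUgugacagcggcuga
miR-629-3p: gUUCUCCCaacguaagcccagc
No 2 of these seeds are the same. The message sequence that pairs with the whole miR-874-3p seed reads CAGGGCA, and its last 6 bases, AGGGCA, pair with bases 2 to 7. The 8 probes are 60 bases long. Over all 58201 probes, 0.387% held CAGGGCA and 1.46% held AGGGCA, with 0.555% and 1.71% for the letters of the other strand, TGCCCTG and TGCCCT. The 6-base words lie within the 7-base ones. None of the 8 probes held CAGGGCA or AGGGCA, and 1 of them, that of CCNE1, held TGCCCT. A probe covers a short stretch of its message, so these matches describe the probes and not the genes' untranslated regions, which were not searched here.

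All 8 probes were well above background on all 8 arrays. The log2 signals below are relative to the 75th percentile of each array, which is set to 0. They compare groups for 1 probe and are not levels that can be set against another probe. Across all arrays, 41.8% to 49.8% of probes were well above background, no spot was saturated, and limma was fitted on the 27303 probes kept. Of 9 squamous epithelial markers, 8 were well above background on all arrays. Of 10 markers of other cell types 4 were, namely PTPRC, CD14, VWF and PDGFRB, while COL3A1 and ALB were on none. Of these markers, 1 was called with miR-874-3p against NC. This was GFAP, an astrocyte filament protein, which was well above background on the 2 miR-874-3p arrays alone and at least 2.33-fold higher there than with NC, whose arrays were taken at their dimmest detected signal. It passed the filter on low values only through the miR-874-3p arrays, and its limma adjusted p of 0.00391 rests on NC values that were not well above background. Its part in the results below was not tested. All arrays lay on 1 slide, with miR-874-3p and NC in one row and the other 2 mimics in the other row, so the comparison of miR-874-3p with NC lies within a row. Row and group cannot be told apart where arrays of both rows are compared.

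With miR-874-3p, the signals of CCNE1 and ATG16L1 (the brighter of its 2 probes) were called lower than with NC, by 1.94-fold and 1.59-fold. PPP1CA, HDAC1 and CDK9 had lower values on both miR-874-3p arrays than on both NC arrays but did not pass the adjusted threshold, and the 2 AQP3 probes and the dimmer ATG16L1 probe overlapped with NC. The 2 calls among 8 probes, at a limma adjusted p under 0.05, stood beside 0.161% of all kept probes called lower, and 0 of the 8 were called higher, beside 0.19%. Without adjustment, 5 of the 8 probes had a p under 0.05 in the lower direction and 0 in the higher, beside 7.9% and 7.82% of all kept probes. The same 5 probes did not overlap between the groups, as was so for 22.3% of all kept probes in that direction. The median log2 change of the 8 probes was -0.33 and that of all kept probes 0.00. With the brightest probe of each gene the 6 genes had a median of -0.54, beside -0.01 over 21283 genes. The genes were chosen with earlier results of these data known. These shares and medians therefore describe the set and are not an independent test of it. By the study's rule, an unadjusted p under 0.05 and at least 2-fold, 0 of the 8 probes were lower, beside 0.52% of all kept probes. Here and below, this rule was applied with limma's p from the fit of all 8 arrays. The study's methods name Student's t-test for comparisons of 2 groups, and the rule was not counted with that test. The arrays measured RNA pooled from all cells of a sample, so less of a message in each cell and fewer cells with the message cannot be told apart.

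**Figure D1:**
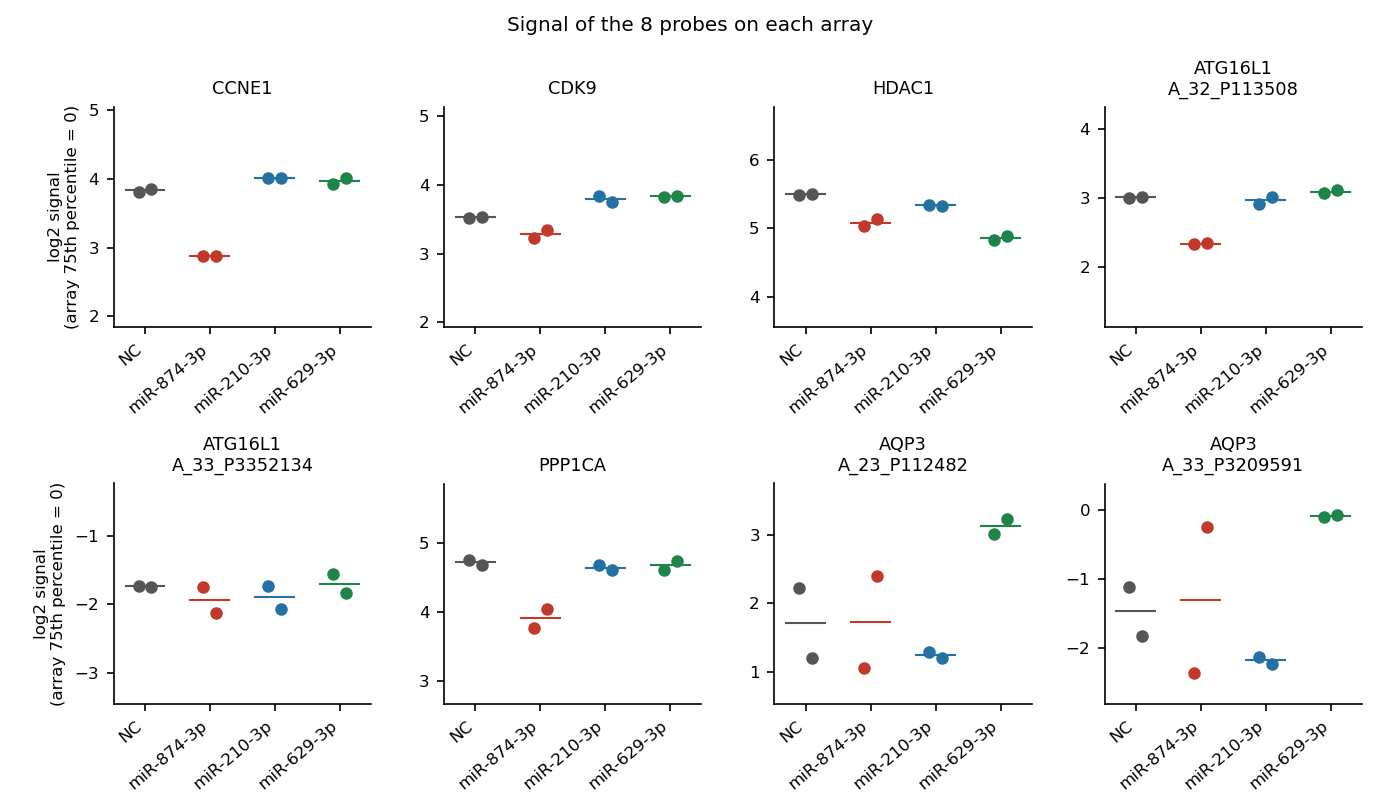
Log2 signal of each of the 8 probes (y axis, with the 75th percentile of each array set to 0) in the 4 groups (x axis), where each point is 1 array and each line the mean of 2 arrays. Every panel spans about the same log2 range or more, so that heights can be compared. CCNE1, CDK9, the brighter ATG16L1 probe (A_32_P113508) and PPP1CA have both miR-874-3p points under all other points. AQP3 has wide gaps between the 2 arrays of miR-874-3p and of NC.

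CCNE1 had the largest change of the 8 probes with miR-874-3p against NC. Its probe lies at chr19:30315106-30315165 on the plus strand (hg19 in the array annotation). The log2 signal was 2.87 and 2.88 after miR-874-3p, 3.81 and 3.86 after NC, 4.01 on both arrays after miR-210-3p, and 3.93 and 4.01 after miR-629-3p. Both miR-874-3p arrays lay below the other 6 arrays, by a gap wider than that between any 2 replicates of this probe. The log2 change from NC was -0.95 (SE 0.07, limma adjusted p = 0.0142), and it was -1.13 from miR-210-3p (adjusted p = 0.0046) and -1.09 from miR-629-3p (adjusted p = 0.00276). At 1.94-fold lower than NC, CCNE1 lay at percentile 1.2 of the changes of all kept probes, counted from the lowest, and short of the study's 2-fold rule. The call against NC was lost (adjusted p between 0.0671 and 0.0674) when any 1 of the miR-210-3p or miR-629-3p arrays was left out, although those arrays do not enter the change itself, and in a fit of the 4 miR-874-3p and NC arrays alone (adjusted p = 0.293).

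CDK9, the kinase of the elongation factor P-TEFb, was spotted 10 times on each array. Its probe lies at chr9:130552256-130552315 on the plus strand. The mean log2 signal was 3.23 and 3.34 after miR-874-3p, 3.52 and 3.53 after NC, 3.84 and 3.75 after miR-210-3p, and 3.83 on both arrays after miR-629-3p. The miR-874-3p arrays were the 2 lowest, the NC arrays came next, and the arrays of the other mimics were the 4 highest with values that overlapped each other. The change from NC was -0.24 (SE 0.08, limma adjusted p = 0.233) and was not called. Against miR-210-3p it was -0.51 (adjusted p = 0.0229) and against miR-629-3p -0.55 (adjusted p = 0.0127), and both were called. CDK9 with miR-629-3p was 0.31 above NC (adjusted p = 0.0512) and with miR-210-3p 0.27 above NC (adjusted p = 0.1), neither of them called. These 4 comparisons set arrays of different slide rows against each other.

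HDAC1 had lower values than NC with all 3 mimics, and the decrease was called with miR-629-3p. Its probe, also spotted 10 times, lies at chr1:32799037-32799096 on the plus strand. The mean log2 signal was 5.03 and 5.13 after miR-874-3p, 5.49 and 5.50 after NC, 5.34 and 5.33 after miR-210-3p, and 4.83 and 4.88 after miR-629-3p. The 4 groups did not overlap, and miR-629-3p, not miR-874-3p, had the lowest arrays. The change from NC was -0.41 with miR-874-3p (SE 0.07, limma adjusted p = 0.0988, not called) and -0.64 with miR-629-3p (SE 0.07, adjusted p = 0.0085, called). The call with miR-629-3p was lost without miR-629-3p replicate 1 (adjusted p = 0.0649) or replicate 2 (adjusted p = 0.0569). The difference between these 2 mimics, 0.23 higher with miR-874-3p, had an adjusted p of 0.0941. Within the other slide row, HDAC1 was 0.48 higher with miR-210-3p than with miR-629-3p (adjusted p = 0.0117).

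The 10 spots of HDAC1 and CDK9 on each array show how far single spots scatter. The SD over the 10 spots was 0.047 to 0.087 log2 for HDAC1 and 0.048 to 0.074 for CDK9, and no spot of either was left out. For HDAC1 the highest of the 20 miR-874-3p spots (5.19) lay below the lowest of the 20 NC spots (5.33). For CDK9 the highest miR-874-3p spot (3.44) lay just above the lowest NC spot (3.42). Spots of 1 array share its RNA and are not replicates of the transfection, and only their means entered the test.

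**Figure D2:**
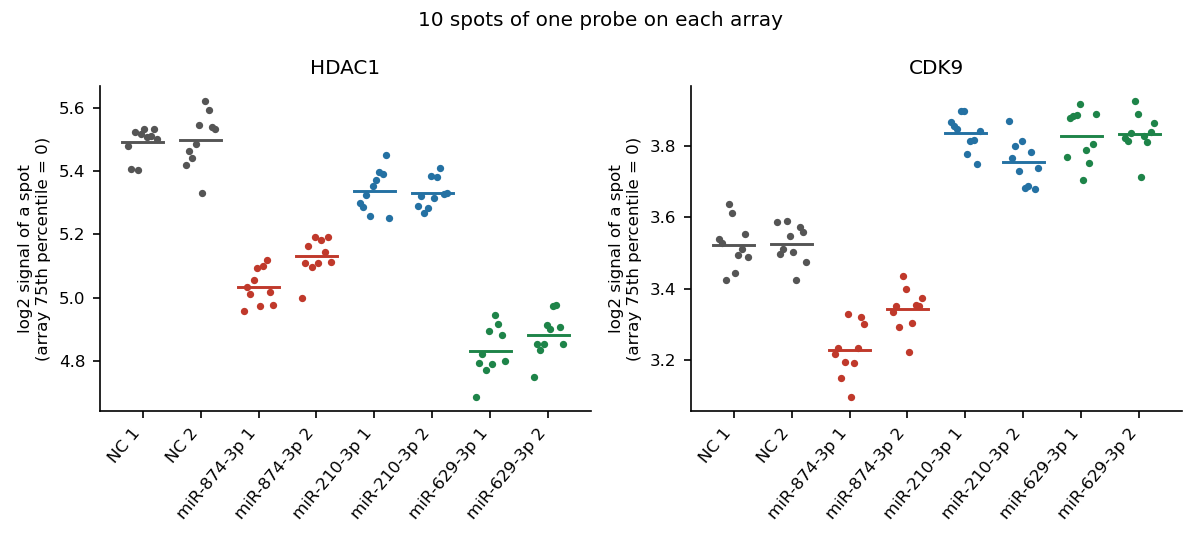
Log2 signal of each of the 10 spots (points) and their mean (line) for HDAC1 and CDK9 on the 8 arrays, with the array on the x axis and log2 signal on the y axis (75th percentile of the array set to 0, y axis not starting at 0). For HDAC1 the miR-874-3p and NC spots are apart, with 5.19 as the highest and 5.33 as the lowest. The miR-629-3p means are lower still, though the highest miR-629-3p spot (4.98) lies above the lowest miR-874-3p spot (4.96).

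ATG16L1 had a called decrease on the brighter probe only. The brighter probe, A_32_P113508, lies at chr2:234203900-234203959 on the plus strand, and the dimmer, A_33_P3352134, at chr2:234202948-234203007. The brighter probe had log2 signals of 2.33 and 2.34 after miR-874-3p, 3.00 and 3.01 after NC, 2.92 and 3.01 after miR-210-3p, and 3.07 and 3.11 after miR-629-3p. Both miR-874-3p arrays lay below the other 6, and the replicates of a group were close together. The change from NC was -0.67 (SE 0.07, limma adjusted p = 0.0384). The dimmer probe had -1.74 and -2.12 after miR-874-3p, -1.73 and -1.74 after NC, -1.73 and -2.06 after miR-210-3p, and -1.56 and -1.84 after miR-629-3p. Its groups overlapped, its change from NC was -0.19 with a 95% interval of -0.65 to 0.26 (adjusted p = 0.655). The difference between the probes was not tested. The call on the brighter probe was lost in each of the 8 fits that left out 1 array, with adjusted p between 0.0508 and 0.132 and changes between -0.68 and -0.66, and in the fit of the 4 miR-874-3p and NC arrays alone (adjusted p = 0.379).

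PPP1CA had the second largest change of the 8 probes but missed the adjusted threshold against NC. The 60 bases of its probe are placed over a 143-base span at chr11:67166297-67166439 on the minus strand. The log2 signal was 3.77 and 4.04 after miR-874-3p, 4.76 and 4.69 after NC, 4.67 and 4.61 after miR-210-3p, and 4.61 and 4.75 after miR-629-3p. Both miR-874-3p arrays lay below the other 6, where the miR-210-3p arrays were just below those of NC and the miR-629-3p arrays overlapped both groups. The change from NC was -0.82 (SE 0.11, limma adjusted p = 0.0654), or 1.76-fold lower. It was -0.74 from miR-210-3p (adjusted p = 0.0235) and -0.77 from miR-629-3p (adjusted p = 0.0138), both called. The 2 miR-874-3p arrays differed by 1.2-fold. When 1 array was left out, the change from NC lay between -0.95 and -0.69. It was -0.95 without miR-874-3p replicate 2, the higher array. Of 13 alternative settings other than leaving out 1 array, 2 called PPP1CA. The adjusted p of limma or the t-test in these 13 lay between 0.0101 and 0.521.

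AQP3 was the member whose 2 arrays of a group differed most, and no change with miR-874-3p was found. Its brighter probe, A_23_P112482, lies at chr9:33441765-33441824 and the dimmer, A_33_P3209591, at chr9:33442897-33442956, both on the minus strand. The brighter probe had log2 signals of 1.05 and 2.40 after miR-874-3p, 2.22 and 1.20 after NC, 1.29 and 1.21 after miR-210-3p, and 3.01 and 3.23 after miR-629-3p. Replicates thus differed by 2.55-fold with miR-874-3p and by 2.02-fold with NC, while those of the other mimics differed by at most 1.17-fold. The dimmer probe had -2.36 and -0.24 after miR-874-3p, -1.12 and -1.83 after NC, -2.14 and -2.23 after miR-210-3p, and -0.10 and -0.07 after miR-629-3p. Both probes had miR-874-3p replicate 2 above replicate 1 and NC replicate 1 above replicate 2, so the gap was not that of a single spot. Between replicates of the same group, 1273 kept probes differed by at least 2-fold for miR-874-3p and 1134 for NC, against 610 for miR-210-3p and 470 for miR-629-3p. The change from NC was 0.02 on the brighter probe (SE 0.51, limma adjusted p = 0.992, 95% interval -1.24 to 1.28) and 0.17 on the dimmer (SE 0.67, adjusted p = 0.934). These intervals hold changes of 2-fold in either direction, so a change of that size was not detectable. The sign rested on single arrays, since without miR-874-3p replicate 2 the changes were -0.66 and -0.89, and without NC replicate 2 they were -0.49 and -0.19. Both probes had their highest 2 arrays with miR-629-3p, at 1.41 (adjusted p = 0.12) and 1.39 (adjusted p = 0.214) above NC. Neither was called at the adjusted threshold. Limma's unadjusted p, which the study's rule was applied with here, was 0.0342 on the brighter probe and 0.0847 on the dimmer. The brighter probe, at 2.66-fold, met the study's rule for miR-629-3p, and the dimmer was called when either miR-874-3p array was left out (adjusted p = 0.0256).

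**Figure D3:**
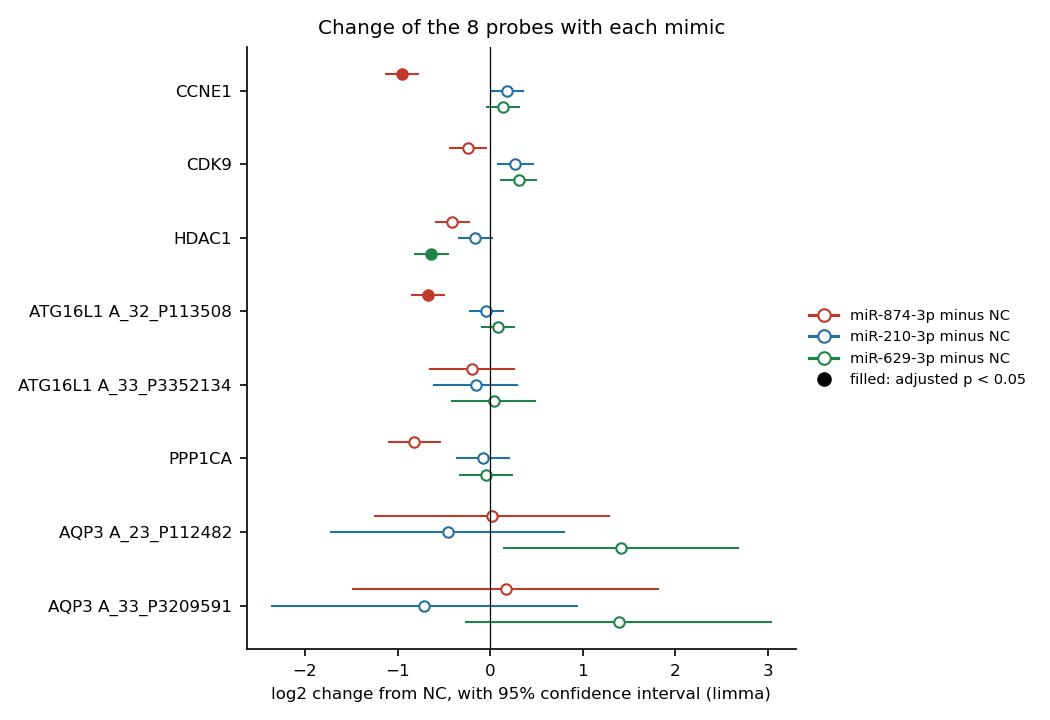
Log2 change from NC (x axis) of each of the 8 probes (y axis) with each mimic, from limma, where bars are 95% confidence intervals and filled points have an adjusted p under 0.05. The filled points are CCNE1 and the brighter ATG16L1 probe with miR-874-3p and HDAC1 with miR-629-3p, and the AQP3 intervals are the widest.

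The other mimics show how the same probes behaved without miR-874-3p. The F test of limma over the 4 groups called 5 of the 8 probes, namely CCNE1, the brighter ATG16L1 probe, HDAC1, PPP1CA and CDK9, beside 23.3% of all kept probes. With miR-210-3p, 0 of the 8 probes were called lower, beside 1.92% of all kept probes, and 0 higher, beside 3.72%. Without adjustment, 0 were lower and 2 higher, CCNE1 and CDK9, beside 8.99% lower and 16.6% higher over all kept probes. With miR-629-3p, 1 was called lower (HDAC1), beside 6.38%, and 0 higher, beside 8.85%. Without adjustment, 1 was lower (HDAC1), beside 14.5%, and 2 were higher (CDK9 and the brighter AQP3 probe), beside 18.2%. By the study's rule, 0 of the 8 were lower with either mimic, beside 1.12% of kept probes with miR-210-3p and 1.51% with miR-629-3p. In the higher direction 0 met it with miR-210-3p, beside 2.08%, and 1, the brighter AQP3 probe, with miR-629-3p, beside 3.82%. These comparisons and that of miR-874-3p share the 2 NC arrays. The median change of the 8 probes was -0.12 with miR-210-3p and 0.11 with miR-629-3p, beside 0.06 and 0.03 over all kept probes.

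Set against the mean of the other 3 groups, which span both slide rows, 4 of the 8 probes were called lower with miR-874-3p, beside 2.3% of all kept probes. These were CCNE1 (-1.06, limma adjusted p = 0.00353), PPP1CA (-0.78, adjusted p = 0.0213), the brighter ATG16L1 probe (-0.68, adjusted p = 0.0104) and CDK9 (-0.43, adjusted p = 0.0324). In each of the 4, both miR-874-3p arrays lay below all 6 others, as was so for 7.85% of kept probes. HDAC1 was not called (-0.15, adjusted p = 0.224). Its miR-629-3p arrays lay lower and its other arrays higher than those of miR-874-3p. The same 4 probes were called lower with miR-874-3p than with miR-210-3p, beside 5.55% of kept probes, and than with miR-629-3p, beside 8.63%. When 1 array was left out, the number called against the other 3 groups was 1 to 4. It was 1 without miR-629-3p replicate 2 or either miR-210-3p array, and 2 without miR-629-3p replicate 1 or either NC array.

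**Figure D4:**
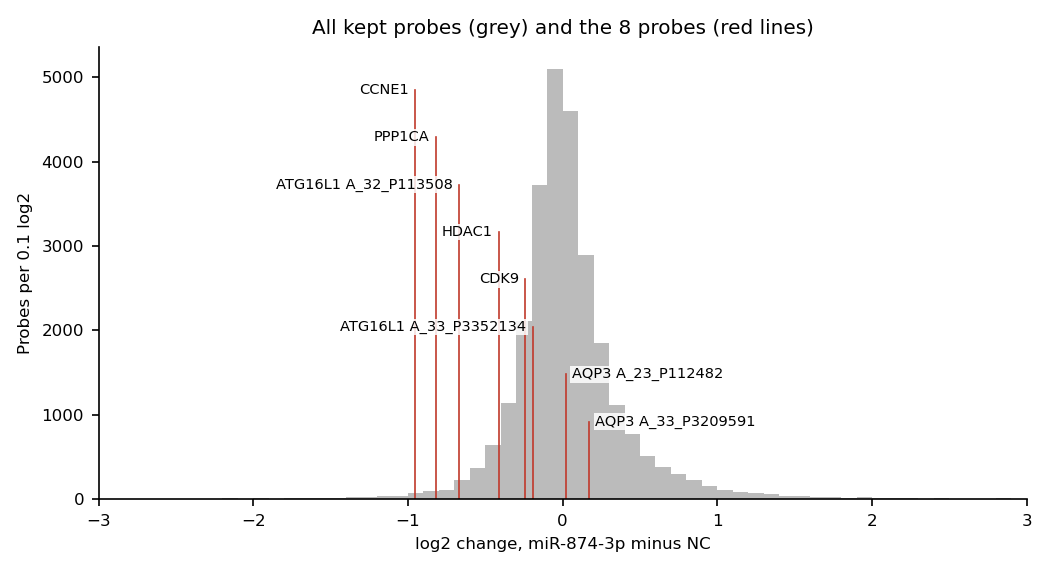
Number of kept probes (y axis) by log2 change between miR-874-3p and NC in bins of 0.1 (x axis, grey), with red lines at the changes of the 8 probes, whose heights carry no value. CCNE1 at -0.95, PPP1CA at -0.82 and the brighter ATG16L1 probe at -0.67 lie in the lower tail, and both AQP3 probes lie near 0.

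For each gene, partners in the same process were examined with the brightest probe of each, on lists chosen with earlier results of these data known. Of the 151 partner genes tested over 6 lists, 0 were called by limma with miR-874-3p against NC. Over all genes 0.169% were called lower and 0.202% higher, and 8.23% were lower and 7.69% higher without adjustment. Among 31 cell cycle partners of CCNE1 (cyclins, kinases and inhibitors of G1 and S phase), 5 had an unadjusted p under 0.05 in the lower direction and 1 in the higher. Their median change was -0.10. Neither of the 2 with the largest changes among those detected on all arrays was called. CDKN2C, which inhibits CDK4 and CDK6, changed by -0.70 (adjusted p = 0.134). CDK2, the kinase that cyclin E1 binds, changed by -0.56 (adjusted p = 0.366). The CDK2 signal was 0.12 and 0.17 after miR-874-3p and 1.11 and 0.31 after NC, so the size of its change rested on NC replicate 1. The 31 autophagy partners of ATG16L1 had 4 lower and 2 higher without adjustment and a median of 0.01. TECPR1, which binds the ATG5 and ATG12 conjugate, changed by -0.46 (adjusted p = 0.084), and ATG10, the enzyme that conjugates ATG12, by -0.40 (adjusted p = 0.252).

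The partners of PPP1CA, which are other catalytic subunits and regulators of protein phosphatase 1, had 3 of 27 lower and 4 higher without adjustment and a median of -0.09. The inhibitor PPP1R14C changed by -0.56 (adjusted p = 0.171) and the glycogen targeting subunit PPP1R3D by 0.35 (adjusted p = 0.609). The PPP1R3D signal was 1.35 and 2.30 after miR-874-3p and 1.51 and 1.44 after NC, so these groups overlapped. The 30 class I deacetylases and complex members listed with HDAC1 had 3 lower and 3 higher and a median of -0.01. GATAD2B, a subunit of the NuRD complex, changed by 0.47 (adjusted p = 0.0962) and HDAC3 by 0.30 (adjusted p = 0.156). Among the 29 partners of CDK9 in transcription elongation, 0 were lower and 3 higher, with a median of 0.03. AFF1, a scaffold of the super elongation complex, changed by 0.51 (adjusted p = 0.15). Of 12 other aquaporins on the array only 3 were tested, and AQP11 changed by -0.14 (adjusted p = 0.65) and AQP1 by 0.03 (adjusted p = 0.933). In 5 of the 6 lists, all but the aquaporins, 0 partners had a lower log2 change from NC than the target itself. The targets and lists were chosen with earlier results of these data known, so this rank is a description only. Among all kept probes, counted from the lowest change, CDK9 lay at percentile 14.8 and HDAC1 at percentile 6.28.

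**Figure D5:**
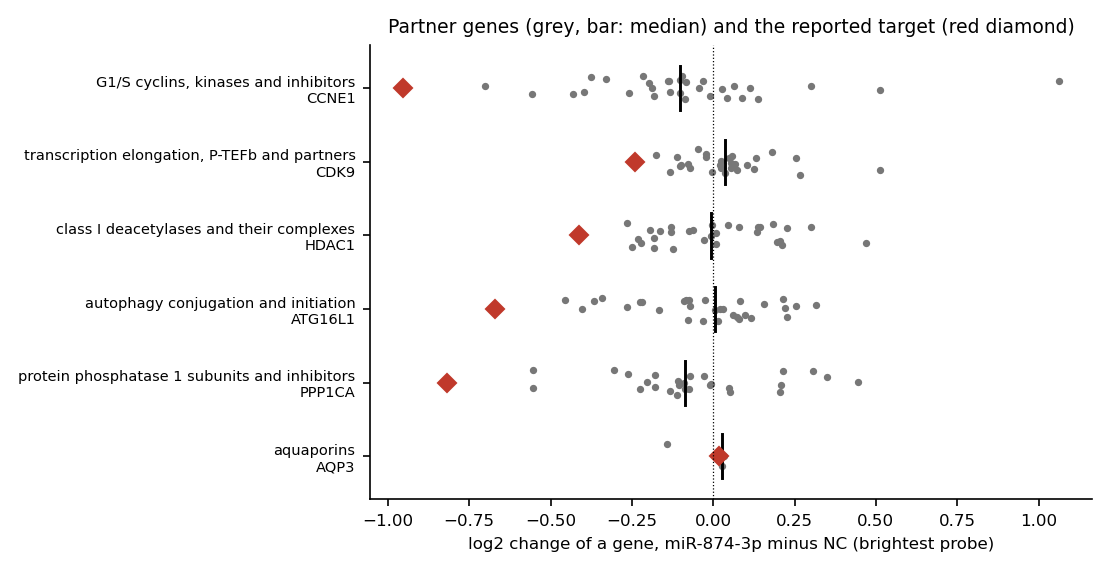
Log2 change between miR-874-3p and NC (x axis) of the partner genes of each reported target (grey points, 1 per gene by its brightest probe, with a black bar at the median), and of the target itself (red diamond), on 6 lists (y axis). The targets lie at -0.95 (CCNE1), -0.24 (CDK9), -0.41 (HDAC1), -0.67 (ATG16L1), -0.82 (PPP1CA) and 0.02 (AQP3), and the medians of the lists between -0.10 and 0.03.

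The same arrays gave a point of reference in the reported targets of miR-210-3p, of which 19 of 20 were tested. With miR-210-3p, 5 of them were called lower and 1 higher than with NC, beside 2.01% and 3.62% of all genes, and their median change was -0.24. FGFRL1, a receptor related to those of fibroblast growth factors, changed by -1.50 (limma adjusted p = 0.0329). NDUFA4, a subunit of the respiratory chain, changed by -1.38 (adjusted p = 0.00578), and ISCU, a scaffold for iron-sulfur clusters, by -1.17 (adjusted p = 0.00626). These 3 were named because they had the largest called decreases on their list, so their size cannot be set against that of CCNE1 with miR-874-3p. The miR-210-3p and NC arrays also lie in different slide rows. The difference between the lists was not tested.

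The genes whose pattern over the 8 arrays was most like that of a target were sought among 17400 genes detected on all arrays. The points fall into 4 groups of 2 arrays, so 1 group can set such a likeness. For CCNE1 they were MIEN1 and TECPR1, with Pearson correlations of 0.99 each, and MIEN1 was itself called lower with miR-874-3p (-0.90, limma adjusted p = 0.0352). For the brighter ATG16L1 probe they were PIGK and USP8 (both 0.99), for PPP1CA GTPBP2 and GUCD1 (both 0.99), for HDAC1 ATP11B and COX1 (both 0.99), and for CDK9 TMEM30B and STAC (both 0.99). For the brighter AQP3 probe they were SOCS1 and an unnamed probe, A_33_P3390939 (both 0.99), and for the dimmer one ISYNA1 and CHURC1 (both 0.99). For the dimmer ATG16L1 probe they were LINC00475 (0.97) and LINC01123 (0.93). The 2 AQP3 probes followed each other (0.97), and the 2 ATG16L1 probes did less so (0.37). CCNE1, the brighter ATG16L1 probe and PPP1CA had correlations of 0.95 to 0.97 with each other over the 8 arrays. With the same probes CDK9 had 0.80 to 0.90 and HDAC1 0.14 to 0.30. Of the 17400 genes, 201 had a correlation over 0.9 with CCNE1, 144 with the brighter ATG16L1 probe and 123 with PPP1CA.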

How the data were processed

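Scanner output of Agilent Feature Extraction 11.5.1.1 was deposited per array, with a processed signal intensity that is background-subtracted and detrended within each array only. A deposited log2 table of the same arrays matched log2 of this signal less about the 75th percentile of the array and was used as an alternative. Its scale and centring are inferred from this match.

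Here, log2 of the processed signal was taken and each array's 75th percentile over gene probes was subtracted. Spots with an outlier flag (87 to 346 of 60901 on an array) were removed before averaging by probe. Kept were the 27303 probes that had a value on every array and, in 1 or more groups, a signal well above background in duplicate. A model with 1 mean per group was fitted to the 8 arrays (limma 3.58.1, R 4.3.3, lmFit and eBayes, 4 residual and 1.72 prior degrees of freedom), with Benjamini-Hochberg adjustment over all kept probes and calls at an adjusted p under 0.05. Pathway genes were represented by their brightest kept probe (21283 genes). The text names all probes of the 6 genes, the 2 detected partners per list with the largest changes where 0 were called, the 2 most alike genes per probe, and the 3 most decreased called miR-210-3p targets. The other partner gene that this rule names for CDK9 is not reported here. The script was tested on simulated data. Precision is set by having 2 arrays in a group.

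The genes and lists were chosen with earlier results of these data known. Alternatives covered background correction, normalization, filters, the test, the replicate block, the methods' t-test and each array left out in turn.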

Additional observations from a re-analysis of the deposited data

How the results depend on the processing

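With miR-874-3p against NC, CCNE1, PPP1CA, HDAC1, CDK9 and both ATG16L1 probes stayed lower under every alternative tried, but no call held in all of them. Of the 8 probes, 4 were called under normexp background correction and under eBayes with trend, where HDAC1 and PPP1CA joined CCNE1 and ATG16L1. Of all kept probes, 225 and 331 were called lower in these settings, beside 44 in the main fit. With no filter on detection, with the methods' t-test after Benjamini-Hochberg adjustment, or with only the arrays compared, 0 of the 8 were called. Over all probes, no filter called 10 lower and 15 higher of 57048, and the t-test called 0 of 27303. With only the arrays compared, 2 of all kept probes were called lower and 10 higher. Why these counts differ was not tested. The main fit shares 1 estimate of the spread over both slide rows. Between replicates, 1273 (miR-874-3p) and 1134 (NC) kept probes differed at least 2-fold in one row. In the other row 610 (miR-210-3p) and 470 (miR-629-3p) did. The same 8 probes had 2 called in the main analysis and 0 to 2 when 1 array was left out, with 1 called without either NC array or miR-874-3p replicate 1 and 0 without any of the miR-210-3p or miR-629-3p arrays. With miR-210-3p against NC, 2 probes were called under normexp and 1 under eBayes with trend, all of them higher, and 0 when 1 array was left out. With miR-629-3p against NC the count was 3 under normexp, 2 under quantile normalization, the authors' deposited values, outlier spots kept, the floor, detection on all 8 arrays, the brightest probe of each gene and eBayes with trend, 0 with the methods' t-test, and 0 to 3 when 1 array was left out. CDK9, at an adjusted p of 0.0512 in the main analysis, was the other call in the settings with 2. Over all kept probes, normexp called 1071 lower and 1857 higher with miR-210-3p, and 2383 lower and 3104 higher with miR-629-3p. The t-test called 0 of all kept probes with either mimic. Against the other 3 groups the count was 1 with no filter on detection and 1 to 4 when 1 array was left out, and a fit of only the groups compared is the same fit. Of 151 partner genes, 3 (1 lower and 2 higher) were called under normexp and 0 under quantile normalization, median centring, the deposited values and the replicate block. With no filter 0 of 167 were called, and with detection on all 8 arrays 0 of 147. The other settings were not run for these genes.

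The labels do not say whether same-numbered arrays were prepared together. Same-numbered arrays had correlations of -0.10 to 0.04 between their deviations. With 2 arrays in a group this cannot decide whether the samples are paired. With the replicate block, 0 of the 8 probes were called with miR-874-3p against NC, beside 19 lower and 29 higher of all kept probes. Against the other 3 groups 2 were called, both lower, beside 111 of all kept probes called lower. A crossed replicate block of the miR-874-3p and NC arrays, chosen after seeing the data, called 0 of the 8 probes and 0 of all kept probes, with 1206 probes lower at an unadjusted p under 0.05.

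The signs that turned belonged to changes not called in the main analysis. Under normexp the brighter ATG16L1 probe was at 0.0048 with miR-210-3p and the dimmer at -0.0097 with miR-629-3p against NC, and PPP1CA with miR-629-3p was at 0.0027 with the deposited values and 0.0031 with outlier spots kept. When 1 array was left out, the brighter AQP3 probe ranged from -0.66 to 0.69 with miR-874-3p and from -0.97 to 0.0479 with miR-210-3p against NC, and from -0.97 to 0.38 against the other 3 groups. The dimmer AQP3 probe ranged from -0.89 to 1.23 with miR-874-3p against NC and from -1.12 to 1.00 against the other 3 groups. PPP1CA with miR-629-3p ranged from -0.11 to 0.0227 and the brighter ATG16L1 probe with miR-210-3p from -0.09 to 0.0015. The dimmer ATG16L1 probe ranged from -0.32 to 0.0066 with miR-210-3p, from -0.10 to 0.17 with miR-629-3p and from -0.34 to 0.037 with miR-874-3p against the other 3 groups.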
